A study of Mus musculus with 8 samples.

Results

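The immediate early transcription factors examined here were 10 genes chosen by name: the FOS family members Fos, Fosb, Fosl1 and Fosl2, the JUN family members Jun, Junb and Jund, the zinc finger factors Egr1 and Egr2, and Ier2. They were 10 of the 49492 gene rows in the deposited table and 10 of the 16232 genes that passed the filter on low values, a value of 1 or more in 2 or more libraries. RNA-seq was carried out on 8 libraries of mouse embryonic fibroblasts (MEFs), connective tissue cells taken from embryos, to ask which transcripts depend on the arginine methylation of Pontin, an ATPase of chromatin remodelling complexes encoded by Ruvbl1, when cells are deprived of glucose. All cells were Pontin f/f MEFs grown by the 3T3 protocol, in which lentivirus had brought in a Flag-tagged Pontin and Cre had deleted the endogenous gene. The added copy was either wild type (Pontin WT) or a mutant in which both methylated arginines were replaced by alanine (Pontin RA). Each line was kept in normal medium with serum or in glucose-free medium with dialyzed serum, which gave 4 groups (WT normal, WT starved, RA normal and RA starved) with 2 replicates each. The duration of starvation for these libraries is not given in the sources used here. Because each Pontin form is held by 1 stable line, the line and the Pontin form cannot be told apart, and the change of serum goes with the change of glucose.

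Immediate early genes are the genes that cells transcribe within minutes of a stimulus such as serum, a growth factor or stress, without the need for new protein synthesis. FOS and JUN proteins pair through leucine zippers to form the transcription factor AP-1. In it FOS proteins bind DNA as partners of JUN proteins, while JUN proteins also pair with each other and with ATF factors. EGR1 and EGR2 bind GC-rich sites, and the corepressors NAB1 and NAB2 limit EGR activity. In growing fibroblasts, signals of the mitogen-activated protein kinases (MAPK) reach these genes through serum response factor (SRF) with its ternary complex partners and through CREB factors.

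Values are reads divided by a scaled library size (the CPM unit), and the libraries held 43205841 to 56363034 reads. At that depth 3 reads, taken as the smallest count that can be told from 0, corresponded to values of 0.0548 to 0.069. This covers counting error only. Most counts from 1 to 9 were even, so 3 reads may stand for fewer fragments. Of 10 fibroblast markers 9 were at 1 or more in every library. Their summed value was lower in the starved libraries, at 3163 to 3238 in WT and 4189 to 4201 in RA, than in normal medium, at 8515 to 8686 in WT and 8468 to 8821 in RA. The sums of other marker lists also differed between media. The summed value of 5 leukocyte and macrophage markers, of which 2 were at 1 or more in every library and Csf1r was the highest at 20.1, was 13.3 to 14.0 in WT normal, 23.9 to 25.1 in WT starved, 16.2 to 17.6 in RA normal and 21.2 to 21.8 in RA starved. For 4 endothelial markers, 1 of them at 1 or more in every library, the sums were 2.52 to 3.39 in WT normal, 8.92 to 9.43 in WT starved, 2.02 to 3.43 in RA normal and 5.99 to 6.34 in RA starved, with Kdr the highest at 6.54. Of 4 epithelial and 4 muscle markers 2 each were at 0 throughout, and the epithelial sum was 0.310 to 0.564 in all groups but RA starved, at 1.16 to 1.25, while the muscle sum stayed at or below 0.322. The part of these shifts in the results that follow was not tested. Reads of Ruvbl1 do not separate the added copy from the endogenous gene. Ruvbl1 stood at 28.4 and 27.6 in WT normal and at 27.9 and 28.4 in WT starved. It stood at 36.8 and 32.0 in RA normal and at 45.0 and 42.9 in RA starved. By the fit described below, Ruvbl1 was higher in RA in normal medium (log2 difference 0.29, limma adjusted p = 0.00946) and under starvation (0.62, limma adjusted p = 2.94e-07). The responses to starvation differed by 0.34 (limma adjusted p = 0.00568). The part of this difference in the results that follow was not tested. In the table the condition is marked by a minus or a plus, taken here to mean without and with starvation. Txnip, a gene known to be induced by glucose, had means of 24.7 and 1.12 in normal and starved WT and of 38.3 and 2.18 in normal and starved RA. A general statement of the study on independent repeats names more repeats than a group here has libraries, and does not say whether these libraries came from separate cultures, so p-values measure the spread between these libraries, which may be technical. In bulk RNA, fewer cells of a type and less RNA per cell cannot be told apart.

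The promoter bases just before the start site are shown for the members whose transcripts fell under starvation in WT and for which RefSeq (GRCm38.p6) gave a window on a chromosome that may be shown. A window was matched for 7 of the 10 members. The windows of Jun and Fos are printed whole, as the 250 bases before the start, since no annotated exon lay in them. For Fosl2, Fosb and Egr2, where other transcripts reach into the window or start near it, the 30 bases around the motifs are printed. Capitals mark the motifs searched on both strands: the AP-1 site TGANTCA, its ATF/JUN variant TGACATCA, the core of the CREB site TGACG, the EGR site GCGNGGGCG and the CArG box bound by SRF. The 5 motifs do not overlap in the sequences printed.
Jun, chr4:95052223-95052472, minus strand: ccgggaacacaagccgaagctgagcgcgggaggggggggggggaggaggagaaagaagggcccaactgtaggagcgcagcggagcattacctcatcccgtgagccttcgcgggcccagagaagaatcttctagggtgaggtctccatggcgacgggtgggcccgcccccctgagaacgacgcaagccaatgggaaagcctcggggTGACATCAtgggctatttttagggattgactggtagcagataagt
Fos, chr12:85473640-85473889, plus strand: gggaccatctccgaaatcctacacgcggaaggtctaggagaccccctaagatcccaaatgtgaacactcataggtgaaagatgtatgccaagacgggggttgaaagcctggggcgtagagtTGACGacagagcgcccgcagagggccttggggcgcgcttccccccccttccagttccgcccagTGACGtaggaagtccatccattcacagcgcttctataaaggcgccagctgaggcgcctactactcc
Fosl2, chr5:32136382-32136411, plus strand: tccggctgcgcGCGGGGGCGgaagggcgcg
Fosb, chr7:19310082-19310111, minus strand: tgcgggTGACGcaagcGCGGGGGCGggtcc
Egr2, chr10:67537793-67537822, plus strand: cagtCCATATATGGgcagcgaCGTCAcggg

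Counted back from the start site, the ATF/JUN variant of Jun lay at -45 to -38, and this motif was found in 2.93% of the 32851 windows of the same length. Fos held the CREB core at -129 to -125 and at -66 to -62, a motif of 17.8% of windows. The EGR site lay at -79 to -71 in Fosl2 and at -50 to -42 in Fosb, and 4.7% of all windows held it. Fosb also held the CREB core, at -60 to -56. The CArG box printed for Egr2 lay at -72 to -63 from 1 of the 5 annotated starts of that gene, another box that is not printed lay at the same distance from another start, and 1.47% of windows held such a box. No window searched for a member held TGANTCA, which 6.75% of windows held. Any window on the chromosome of Egr1 was left out of this search. A match describes the letters in the window and is neither a measured binding site nor a cause of the values below.

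The first question was how the members moved when glucose was withdrawn. In WT, 6 of the 10 members fell, 1 rose and 3 were not called (limma on log2(value + 1), Benjamini-Hochberg (BH) adjusted p under 0.05 over all 16232 genes). Starvation moved most of the transcriptome, with 39.2% of all tested genes called lower and 39.3% called higher in WT, so 6 of 10 has to be read against that background. In RA, 6 members fell, none rose and 4 were not called, where 33.7% of tested genes were called lower and 35.0% higher. The members had a median log2 change of -0.44 for WT and -0.32 for RA, against medians of 0.0049 and 0.013 over all tested genes. Egr2 passed the filter only through 2 libraries in normal medium, where it is high, so its call in WT is tied to the filter. Without it, 5 of 9 members fell in WT and 6 of 9 in RA, with medians of -0.38 and -0.27. Fosl2, Jun, Egr1 and Fosb were called lower in both lines. With the filter raised to a value of 5, Fos, Fosb and Egr2 were not tested and 4 members were called in WT.

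**Figure D1:**
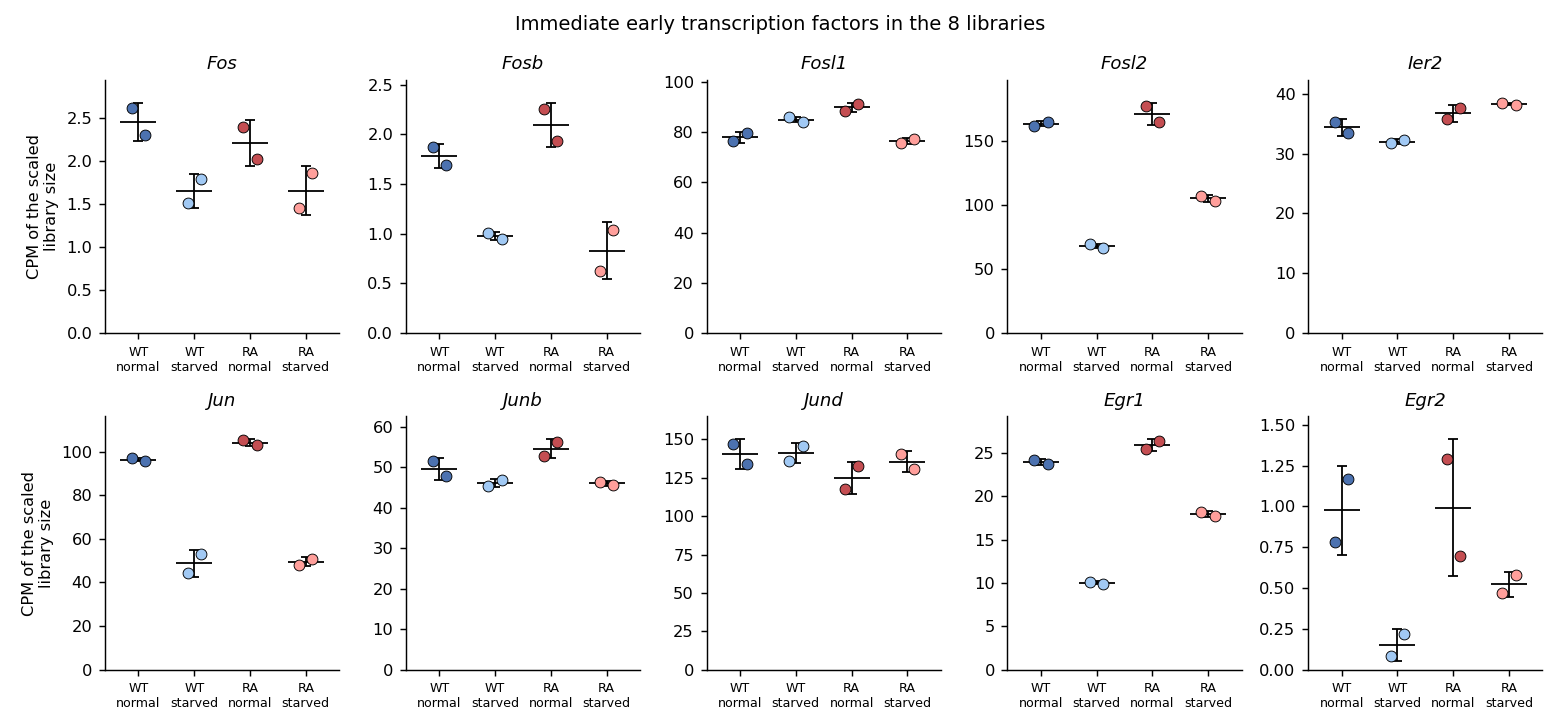
Value of each gene, in CPM of the scaled library size (linear axes from 0), in the 2 libraries (points) of each group, with the group mean (horizontal line) and SD (bar). Fosl2 and Egr1 stand lowest in WT starved and at a middle level in RA starved, Jun falls to overlapping values in both starved groups, and Jund overlaps between starved and normal medium in each line.

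Among the FOS family, Fosl2 moved most in WT and Fosb in RA. Fosl2 encodes FRA2, a FOS protein without the strong activation domain of FOS itself. Its values were 162 and 165 in WT normal, 69.3 and 66.8 in WT starved, 178 and 165 in RA normal, and 107 and 103 in RA starved. Starved libraries lay below all normal libraries, and the RA starved pair lay between the WT starved pair and the normal libraries. On the log2 scale this was a change of -1.26 (SE 0.043, limma adjusted p = 4.37e-14) for WT and of -0.70 (SE 0.043, limma adjusted p = 2.8e-10) for RA. The responses differed by 0.56 (SE 0.062, limma adjusted p = 1.25e-06 for the interaction). Fosl2 has no other gene over its exons in the annotation (GENCODE M21 on GRCm38, chr5:32135801-32157842, plus strand), which is not the mm9 build the authors mapped to.

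Fosl1 encodes FRA1, the FOS protein best known from growing and transformed fibroblasts. It went the opposite way in the lines: 76.5 and 79.6 in WT normal against 85.9 and 84.3 in WT starved, and 88.6 and 91.2 in RA normal against 75.7 and 77.4 in RA starved. Both groups of each line were apart. Starvation raised Fosl1 by a log2 change of 0.12 in WT (SE 0.042, limma adjusted p = 0.0137), whereas Fosl1 fell by 0.23 in RA (SE 0.042, limma adjusted p = 0.000137). The interaction was -0.35 (SE 0.060, limma adjusted p = 0.000121). The rise in WT was lost when the libraries were scaled to plain totals (0.05, limma adjusted p = 0.28), with quantile normalization (0.06, limma adjusted p = 0.196), and without WT normal 1 (0.095, limma adjusted p = 0.123) or WT starved 1 (0.11, limma adjusted p = 0.0693). Of the 2033 exonic bases of Fosl1 (chr19:5447547-5455946), 1163 overlap Ccdc85b on the opposite strand, whose values ran from 8.90 to 21.1. How the authors handled strand is not given in the sources used here, so reads over the shared bases cannot be assigned to either gene.

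Fos and Fosb, the members most closely tied to acute stimulation, were low in all libraries, with 72 to 120 reads for Fos and 32 to 100 reads for Fosb. All of these counts were even, so they may stand for fewer fragments. Fos stood at 2.61 and 2.30 in WT normal, 1.51 and 1.79 in WT starved, 2.39 and 2.02 in RA normal, and 1.45 and 1.86 in RA starved. Within each line the starved pair lay below the normal pair. The decrease of Fos was called in WT (-0.38, SE 0.14, limma adjusted p = 0.0165) and not in RA (-0.27, SE 0.14, limma adjusted p = 0.0842), and the difference between these responses was not called (0.11, limma adjusted p = 0.662, 95% interval -0.30 to 0.52). Without WT normal 1 or WT starved 1 the decrease in WT was not called (limma adjusted p = 0.102 and 0.113), nor with quantile normalization (-0.27, limma adjusted p = 0.0859). Fosb stood at 1.87 and 1.69 in WT normal, 1.01 and 0.95 in WT starved, 2.25 and 1.94 in RA normal, and 0.627 and 1.03 in RA starved. Its starved values lay below its normal values in both lines, with log2 changes of -0.49 (SE 0.14, limma adjusted p = 0.00443) for WT and -0.77 (SE 0.14, limma adjusted p = 0.000133) for RA. On the log2(value + 1) scale changes of genes this low are understated.

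Of the JUN family, Jun itself was the member that starvation lowered most. Jun encodes the strongest activator of the family and is known to be induced through its own promoter site shown above. Its values were 96.8 and 95.8 in WT normal, 44.5 and 53.1 in WT starved, 105 and 103 in RA normal, and 48.0 and 51.0 in RA starved. The starved pairs of the lines overlapped, and both lay far below the normal pairs. Starvation changed Jun by -0.97 (SE 0.062, limma adjusted p = 1.99e-10) in log2 units for WT and by -1.06 (SE 0.062, limma adjusted p = 1.27e-10) for RA. The responses differed by -0.08 (limma adjusted p = 0.446), with a 95% interval of -0.27 to 0.10. Leaving out WT starved 1, the lower of its pair, made this difference -0.21 (limma adjusted p = 0.023). Junos, a transcript on the opposite strand that shares 232 bases of the single Jun exon (chr4:95049034-95052222), stood at 26.1 and 28.6 in WT normal, 10.5 and 14.2 in WT starved, 27.2 and 27.1 in RA normal, and 13.0 and 14.8 in RA starved. With strand handling not given, the rows of Jun and Junos may hold some of the same reads.

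Junb encodes a JUN protein that often opposes Jun in growth control. It stood at 51.5 and 47.8 in WT normal, 45.4 and 46.9 in WT starved, 52.9 and 56.2 in RA normal, and 46.5 and 45.6 in RA starved. The pairs did not overlap within either line, but the gap was small. Its log2 change in RA was -0.24 (SE 0.052, limma adjusted p = 0.000675), a called decrease. In WT the difference was -0.10 (SE 0.052, limma adjusted p = 0.0853), and it was called lower with plain total scaling (-0.17, limma adjusted p = 0.00623), with quantile normalization (-0.14, limma adjusted p = 0.0209) and without WT normal 2 (-0.16, limma adjusted p = 0.0367). Its exons share 173 bases with Prdx2 on the opposite strand, a gene at 127 to 246, and reads over these bases cannot be assigned to either gene.

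Jund, the JUN gene that cells express most steadily, was not called in any of the 5 comparisons. Its values were 147 and 134 in WT normal, 136 and 146 in WT starved, 118 and 132 in RA normal, and 140 and 131 in RA starved, and RA normal was apart from both WT groups, while all other pairs of groups overlapped. The log2 difference under starvation was 0.01 in WT (limma adjusted p = 0.931, 95% interval -0.12 to 0.13) and 0.12 in RA (limma adjusted p = 0.0815, 95% interval -0.0049 to 0.24). Without RA normal 2 the difference in RA was 0.20 (limma adjusted p = 0.00614), and quantile normalization also called it (0.17, limma adjusted p = 0.0115). On the opposite strand Gm11175 covers 877 of the 1668 exonic bases of Jund (chr8:70698949-70700616) and stood at 95.4 to 114, so the 2 rows may hold the same reads.

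The EGR genes were both called lower in WT, but the call of Egr2 is tied to the filter, as said above. Egr1, the serum- and stress-responsive founder of the family, stood at 24.2 and 23.8 in WT normal, 10.2 and 9.92 in WT starved, 25.5 and 26.4 in RA normal, and 18.2 and 17.7 in RA starved. The 4 groups did not overlap, and as for Fosl2 the RA starved pair lay between the WT starved pair and the normal libraries. Log2 changes were -1.18 (SE 0.069, limma adjusted p = 5.84e-11) for WT and -0.51 (SE 0.069, limma adjusted p = 5.28e-06) for RA, and the responses differed by 0.67 (SE 0.097, limma adjusted p = 2.53e-05).

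Egr2, a factor known from myelinating cells and the hindbrain, was at the edge of detection. It held 36 and 58 reads in WT normal, 4 and 12 in WT starved, 56 and 36 in RA normal, and 24 and 28 in RA starved, that is, values of 0.783 and 1.17, 0.0838 and 0.219, 1.29 and 0.698, and 0.470 and 0.578. All starved values lay below all normal values. In log2 units the change was -0.77 (SE 0.16, limma adjusted p = 0.000363) for WT and -0.37 (SE 0.16, limma adjusted p = 0.0534) for RA. The size depends on the scale at counts this low, and edgeR on whole reads gave log2 changes of -2.64 and -0.90, DESeq2 -2.67 and -0.92. In RA it was called lower with the replicate number as a block (limma adjusted p = 0.0483), with quantile normalization (-0.41, limma adjusted p = 0.0428) and without RA normal 2 (-0.59, limma adjusted p = 0.00948). The difference between the responses, 0.40, was not called (limma adjusted p = 0.159). It was 1.37 with a pseudocount of 0.1 (limma adjusted p = 0.0431) and 1.73 with edgeR on whole and on halved reads (edgeR BH-adjusted p = 0.0332 and 0.0412), each called, and 1.75 with DESeq2 (DESeq2 BH-adjusted p = 0.0551), not called. Low counts in the table were mostly even, so the reads of Egr2 may stand for fewer fragments.

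Ier2 encodes a short nuclear protein induced by growth factors. Its values were 35.3 and 33.4 in WT normal, 31.7 and 32.3 in WT starved, 35.7 and 37.7 in RA normal, and 38.4 and 38.2 in RA starved. The starved pair lay below the normal pair in WT and above it in RA. Neither shift was called, with log2 differences of -0.10 (SE 0.055, limma adjusted p = 0.111) in WT and 0.06 (SE 0.055, limma adjusted p = 0.344) in RA. With plain total scaling the WT decrease was called (-0.17, limma adjusted p = 0.0103) and so was the interaction (0.23, limma adjusted p = 0.0235, against 0.101 as deposited).

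**Figure D2:**
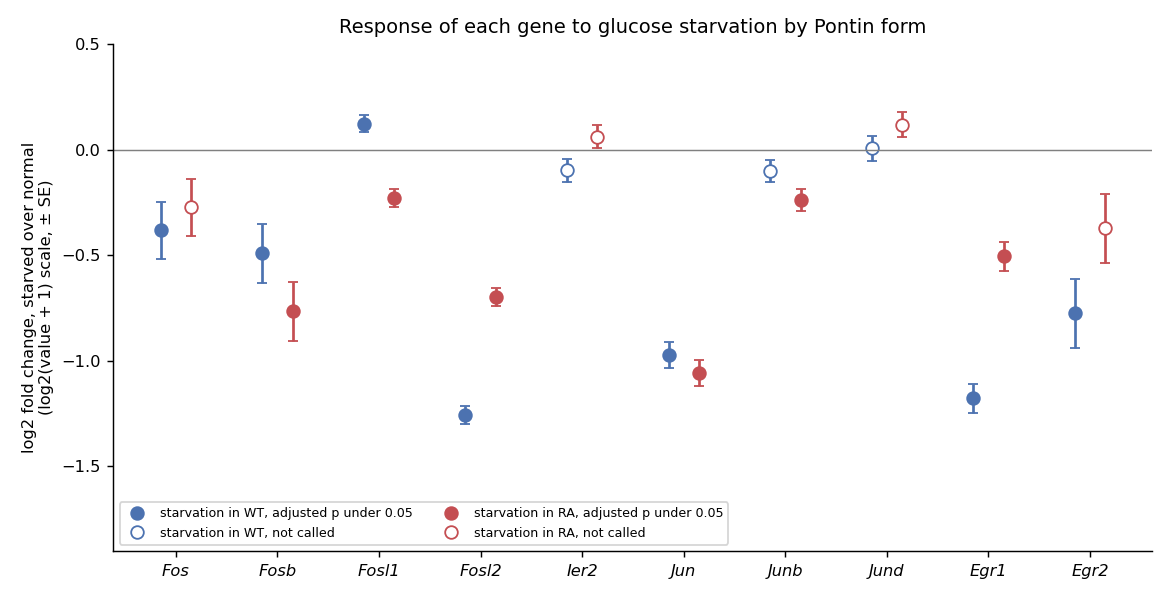
Log2 fold change of starved over normal medium on the log2(value + 1) scale for each gene, in WT (blue) and RA (red), with the standard error of the fit as bars; filled points had a BH-adjusted p under 0.05. Fosl2 lies at -1.26 in WT and -0.70 in RA and Egr1 at -1.18 and -0.51, while Jun lies near -1 in both and Fosl1 on opposite sides of 0.

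The next question was whether the lines differed before starvation. In normal medium 1 member was called, Fosl1, with a log2 difference of 0.20 in favour of RA (SE 0.042, limma adjusted p = 0.00592), and 9 were not called. Over all tested genes 6.68% were called higher and 2.95% lower in RA, so 1 of 10 members is near that background. Of all calls 69.4% were higher in RA as deposited, 52.6% with quantile normalization and 40.5% with plain total scaling. The Fosl1 call was lost without WT normal 1 (0.17, limma adjusted p = 0.10) and without the mean-variance trend (limma adjusted p = 0.0743). Jund was lower in RA by a difference of -0.17 that was not called (limma adjusted p = 0.0802) but was called with the replicate block (limma adjusted p = 0.0472), DESeq2 (DESeq2 BH-adjusted p = 0.0437), plain totals (-0.22, limma adjusted p = 0.0212), quantile normalization (-0.20, limma adjusted p = 0.031) and without RA normal 2 (-0.25, limma adjusted p = 0.0155).

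Under starvation the lines differed in 5 members. Egr1 (0.78, SE 0.069, limma adjusted p = 4.06e-08), Fosl2 (0.62, SE 0.043, limma adjusted p = 2.07e-09), Egr2 (0.41, SE 0.16, limma adjusted p = 0.0397) and Ier2 (0.25, SE 0.055, limma adjusted p = 0.000779) were higher in RA. Fosl1 was lower in RA (-0.15, SE 0.042, limma adjusted p = 0.00536). Among all tested genes 30.8% were called higher and 32.1% lower in RA, so 4 higher and 1 lower of 10 members is close to the background in number. The Egr2 call was lost without any single starved library (limma adjusted p = 0.0544 to 0.199), and that of Fosl1 without RA starved 1 (-0.13, limma adjusted p = 0.0507). For Jun the difference was 0.02 (limma adjusted p = 0.746, 95% interval -0.11 to 0.16), and without WT starved 2 it was 0.15 (limma adjusted p = 0.0295). Junb differed by -0.0028 (limma adjusted p = 0.966, 95% interval -0.11 to 0.11).

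The interaction was called for 3 members, with Egr1 and Fosl2 higher and Fosl1 lower, against 24.5% of tested genes called higher and 26.1% lower. Egr1 and Fosl2 fell less in RA than in WT, and the sign of both differences was the same under all alternatives run. The comparisons share libraries, so their values are given side by side and were not correlated. Across the 8 libraries Fosl2 and Egr1 had a correlation of 0.984 on the log2(value + 1) scale, Jun and Fosb 0.947, and Fosl1 and Egr1 -0.017, which describe libraries that share 4 conditions.

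Levels of different genes were compared per kilobase of exon, with the exons of all annotated transcripts of a gene joined, so the order depends on these lengths. Jund stood highest in all 4 groups, at 84.2 ± 5.7 (SD, n = 2) in WT normal, and Fosl1 came next at 38.4 ± 1.1. In normal medium Jun followed, at 30.2 ± 0.23 in WT and 32.6 ± 0.50 in RA. Under starvation Jun, at 15.3 ± 1.9 in WT and 15.5 ± 0.65 in RA, stood below Ier2 and Junb. Ier2 and Junb overlapped in range in normal medium in both lines and were apart under starvation. Fosl2, Egr1 and Fos followed in that order in every group, Fos at 1.04 ± 0.094 in WT normal. Egr2 and Fosb closed the order, overlapping in range except in WT starved, where Fosb at 0.157 ± 0.0063 stood above Egr2 at 0.045 ± 0.028.

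The composition of the FOS transcripts was then examined per exonic kilobase. Their summed level was 56.6 ± 1.2 (SD, n = 2) in WT normal, 49.7 ± 0.67 in WT starved, 63.2 ± 0.14 in RA normal and 49.4 ± 0.47 in RA starved. Fosl1 made up 67.8% ± 0.48 of that sum in WT normal and 84.1% ± 0.0018 in WT starved, and 70.0% ± 1.6 and 76.3% ± 0.44 in RA. The share of Fosl2 was 29.9% ± 0.23 and 14.1% ± 0.18 in normal and starved WT, and 28.0% ± 1.4 and 22.0% ± 0.77 in normal and starved RA. Fos itself was between 1.41% and 1.84% of the sum in all groups. In the JUN family, Jund had a share of 61.9% ± 0.97 in WT normal, 70.5% ± 0.41 in WT starved, 57.0% ± 1.8 in RA normal and 69.6% ± 1.3 in RA starved. The share of Jun was 22.2% ± 0.99, 12.7% ± 0.92, 24.9% ± 1.7 and 13.3% ± 0.97 in the same groups. These shares are a description of mRNA, without a test, and the shares of Fosl1, Jun, Junb and Jund include bases that overlap other genes.

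**Figure D3:**
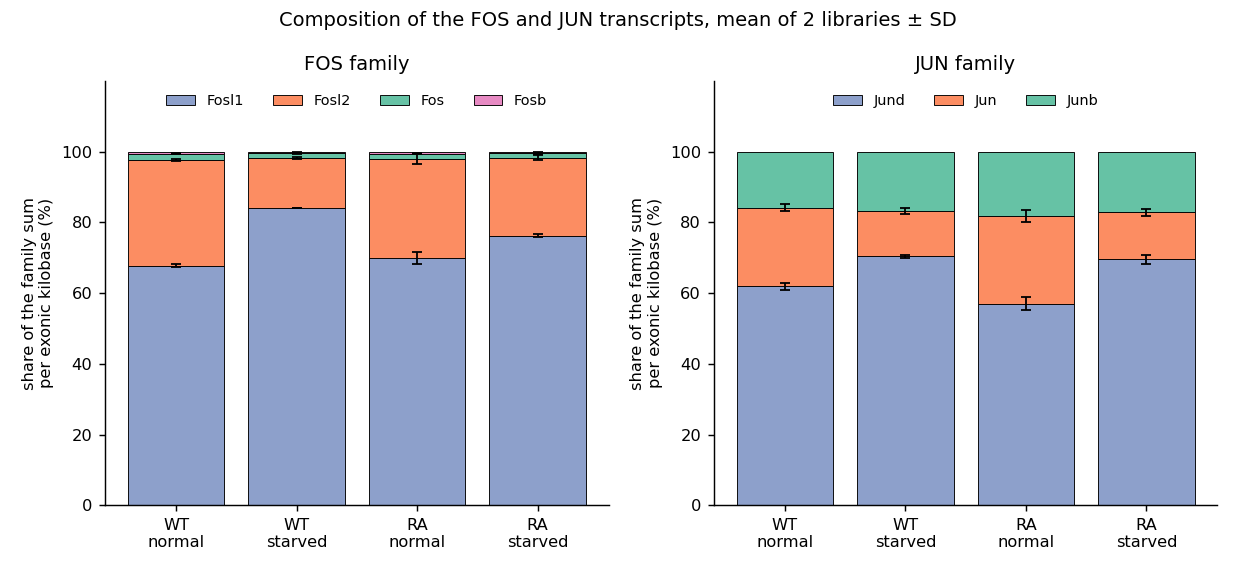
Share of each gene in the summed level per exonic kilobase of its family, in percent, for FOS transcripts (left) and JUN transcripts (right), as the mean of 2 libraries per group with the SD of a gene's share drawn at the top of its segment. The Fosl1 segment is 67.8% in WT normal, 84.1% in WT starved, 70.0% in RA normal and 76.3% in RA starved, and under starvation the Jun segment shrinks to 12.7% and 13.3%.

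The proteins that act with, on or downstream of these factors were described through 9 gene lists, by the same fit over all genes, and each count has to be read against the shares of all tested genes given above. These were 39.3% higher and 39.2% lower in WT, 35.0% and 33.7% in RA, 6.68% and 2.95% between the lines in normal medium, 30.8% and 32.1% between them under starvation, and 24.5% and 26.1% for the interaction. The ATF, BATF and small MAF factors, which pair with FOS and JUN proteins or share their sites, moved opposite to most members. All 9 genes of that list that passed the filter rose in WT (39.3% of all genes). In RA 8 rose (35.0% of all genes) and 1 was not called. Batf and Batf3 did not pass the filter. Medians were 0.94 for WT and 0.85 for RA in log2 units. Atf3, a stress-induced repressor and activator, rose in both lines, with 14.4 ± 0.20 and 131 ± 0.51 (SD, n = 2) in normal and starved WT and 17.6 ± 1.1 and 88.6 ± 1.4 in normal and starved RA, log2 changes of 3.09 (limma adjusted p = 4.96e-18) and 2.27 (limma adjusted p = 9.4e-16). Atf4, the effector of the integrated stress response, had log2 changes of 1.12 and 1.16 in the lines, and Mafg of 1.39 and 0.98, called in both. Maff rose by 0.61 in WT (limma adjusted p = 2.9e-09), and its difference in RA was -0.09 (limma adjusted p = 0.0966). The interaction was called lower for 5 of the 9, Atf3 at -0.82 and Maff at -0.70 among them, and for 3 with plain total scaling, with no filter and without the mean-variance trend. In normal medium 3 of the 9 were called higher in RA and none lower, and under starvation 2 were called higher and 5 lower. Without the trend no gene of the list was higher in normal medium, and with plain total scaling 2 were lower. Under starvation 1 was higher without the trend or the filter.

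Of the EGR family and NAB list only Nab1 and Nab2 passed the filter. Nab2 stood at 75.7 ± 2.5 in WT normal and 29.5 ± 0.22 in WT starved, and at 73.8 ± 4.0 and 73.6 ± 2.6 in RA. Its log2 change was -1.33 in WT (SE 0.050, limma adjusted p = 1.44e-13) and -0.0032 in RA (limma adjusted p = 0.959), and the interaction was 1.33 (limma adjusted p = 1.45e-10). Nab1 behaved alike in direction, at 50.5 ± 1.1 and 31.4 ± 0.083 in WT against 51.6 ± 1.9 and 50.3 ± 0.63 in RA, with an interaction of 0.63 (limma adjusted p = 1.32e-06). In RA, where Egr1 fell, neither Nab1 (-0.036, limma adjusted p = 0.536) nor Nab2 was called. Egr3, Egr4 and Wt1 did not pass the filter.

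**Figure D4:**
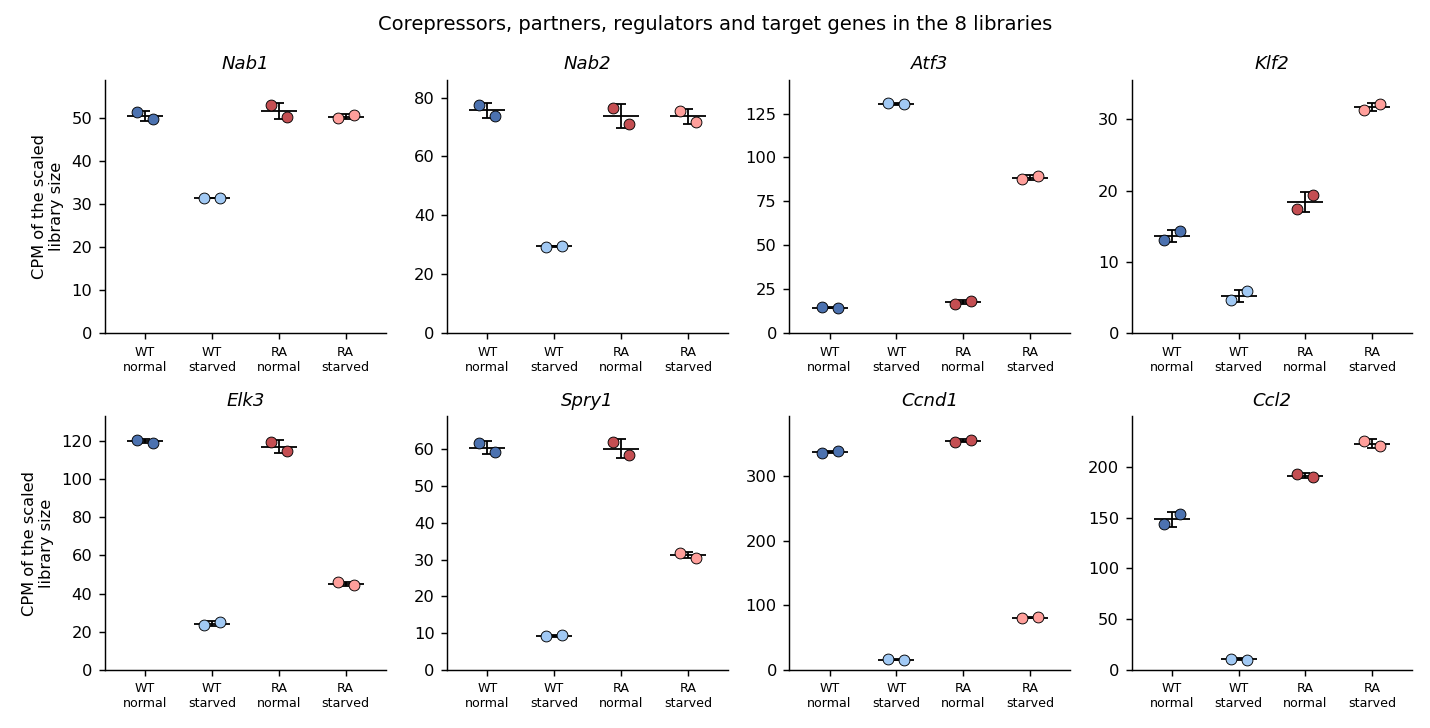
Values in CPM of the scaled library size (linear axes from 0) of the EGR corepressors Nab1 and Nab2, the ATF factor Atf3, the immediate early factor Klf2, the ternary complex factor Elk3, the MAPK inhibitor Spry1 and the AP-1 target genes Ccnd1 and Ccl2, in the 2 libraries (points) of each group with mean and SD. Nab2 is at 29.5 in WT starved and at 73.6 in RA starved, and Atf3 is at 131 and 88.6.

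Other transcription factors of the primary response went both ways. Of 20, 9 rose and 9 fell in WT, and 7 rose and 10 fell in RA, with medians of -0.034 and -0.14. These shares are near those of all genes in WT (39.3% higher and 39.2% lower). Myc and Klf4 rose in both lines, Myc by log2 changes of 0.86 for WT and 0.96 for RA, Klf4 by 2.05 and 1.93. Decreases in WT were called for Ier5l (-1.78), Nfkbiz (-1.53), Klf2 (-1.24) and Klf6 (-1.22). Klf2, a factor of quiescent cells, stood at 13.6 ± 0.90 in WT normal, 5.21 ± 0.90 in WT starved, 18.4 ± 1.4 in RA normal and 31.8 ± 0.56 (SD, n = 2) in RA starved, with a called decrease in WT, a called rise in RA and a called interaction (limma adjusted p = 4.18e-09). Csrnp1 moved the other way, by 0.62 for WT and -0.32 for RA, both called. Of the 20, 10 had a higher and 6 a lower interaction. In normal medium 11 of the 20 were called higher in RA and 1 lower, with plain total scaling 8 and 3, with no filter 7 higher, and without the trend 5 and 0. Under starvation 13 were called higher and 5 lower. Atf3, Maff and Srf each stand on 2 lists.

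The other genes of the primary response were mostly lower in WT. Of 25 measured, 18 fell and 5 rose in WT, while 13 fell and 10 rose in RA, with medians of -0.73 and -0.18, where 39.2% of all genes fell in WT and 33.7% in RA. With plain total scaling or no filter 3 rose in WT. Sgk1, a serum-induced kinase, had log2 changes of -2.65 for WT and -1.06 for RA. Ctgf, a secreted matrix factor, stood at 887 ± 11 in WT normal, 221 ± 2.9 in WT starved, 1084 ± 49 in RA normal and 838 ± 6.5 (SD, n = 2) in RA starved, a decrease called in both lines. Gadd45a, a growth arrest gene, rose by 3.77 for WT and 3.58 for RA, and Ptgs2 by 0.87 and 0.67. Trib1 changed by -1.86 and -0.83, and Ereg by -1.45 for WT and 0.33 for RA, all called. A higher interaction was called for 18 and a lower for 2 of the 25 (none lower with plain total scaling). In normal medium 10 were higher in RA (6 without the trend) and none lower, and under starvation 24 were higher and none lower.

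Most genes that restrain MAPK signalling fell. Of 16 phosphatase, sprouty and spred genes that passed the filter, 13 fell and 1 rose in WT, and 10 fell and 3 rose in RA. Medians were -0.78 and -0.65, beside 39.2% and 33.7% of all genes that fell. Dusp2 did not pass the filter. Spry1 stood at 60.5 ± 1.9 in WT normal, 9.22 ± 0.18 in WT starved, 60.1 ± 2.6 in RA normal and 31.1 ± 0.86 (SD, n = 2) in RA starved, and fell in both lines. Dusp5 and Dusp14, phosphatases of MAP kinases, had log2 changes of -2.32 and -2.35 for WT and of -1.46 and -1.71 for RA. Dusp4 rose by 1.42 for WT and 0.90 for RA. Dusp1, itself an immediate early gene, changed by -0.22 for WT and by 0.72 for RA, both called. Interactions were higher for 9 and lower for 2. In normal medium 3 of the 16 were higher in RA (1 with no filter, 0 without the trend) and none lower, and under starvation 10 were higher and 2 lower.

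The kinases of the MAPK cascades showed smaller shifts. Of 28, 8 rose and 14 fell in WT and 8 rose and 13 fell in RA, and medians were -0.089 and -0.14, where all genes had 39.3% higher and 39.2% lower in WT and 35.0% and 33.7% in RA. The counts in WT were 4 higher and 15 lower with plain total scaling and 10 higher and 12 lower with median-ratio scaling, and DESeq2 called 5 higher in each line. Rps6ka4, which encodes the kinase MSK2 that acts on CREB and histone H3, changed by -1.81 for WT and -1.11 for RA, and Mapk11, a p38 kinase, by -1.57 and -0.68. Map2k1, which encodes MEK1, rose by 0.32 and 0.27. These changes were called. Interactions were higher for 8 and lower for 5. Between lines, 1 was higher and 2 lower in RA in normal medium (none lower with no filter or without the trend), and 12 were higher and 8 lower under starvation.

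Among SRF, ternary complex and CREB factors, 7 of 13 rose and 4 fell in WT, and 7 rose and 3 fell in RA, with medians of 0.25 and 0.21, beside 39.3% and 35.0% of all genes that rose. The ternary complex factors went apart: Elk1 rose by 0.78 and Elk4 by 0.92 in WT, while Elk3, known as a repressor at SRF sites, fell in both lines, with 120 ± 0.99 and 24.1 ± 1.2 (SD, n = 2) in normal and starved WT and 117 ± 3.4 and 45.2 ± 1.1 in normal and starved RA. Elk4 rose by 0.27 in RA and Elk1 by 0.46. Crem changed by -0.81 for WT and -0.74 for RA, both called. The interaction was called higher for 3 and lower for 4, or for 2 with plain total scaling and with no filter. In normal medium none of the 13 was called between the lines by limma at a BH-adjusted p under 0.05, and under starvation 3 were higher and 7 lower in RA.

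Textbook AP-1 target genes were the list with the lowest median in WT. Of 14 genes that passed the filter, 10 fell and 3 rose in WT, and 8 fell and 6 rose in RA. Medians were -1.35 and -0.28, where 39.2% of all genes fell in WT and 33.7% in RA. Mmp1a, Mmp3, Mmp9 and Mmp10, also on this list, did not pass the filter. Ccnd1, which encodes cyclin D1, stood at 338 ± 1.2 in WT normal, 15.7 ± 1.1 in WT starved, 355 ± 2.2 in RA normal and 80.6 ± 1.0 (SD, n = 2) in RA starved. Ccl2, a chemokine, stood at 148 ± 7.1, 10.4 ± 0.95, 191 ± 2.3 and 223 ± 4.0 in the same order of groups, with an interaction of 3.94 (limma adjusted p = 1.7e-16). Plau, which encodes urokinase, changed by -3.48 for WT and -0.51 for RA, both called. Hmox1 and Vegfa, targets of several stress pathways as well, rose by 2.99 and 2.35 in WT, and their log2 changes in RA were 2.25 and 1.98, called as well. The interaction was called higher for 12 and lower for 2 of the 14 (24.5% and 26.1% of all genes), and under starvation 12 were higher and 2 lower in RA. In normal medium 7 of the 14 were higher in RA (4 without the trend) and none lower. Of 5 genes of JUN turnover, 2 rose and 2 fell in WT, which is at the share of all genes (39.3% and 39.2%). Among them were Rfwd2, the ubiquitin ligase COP1, at 0.17, and Det1 at -0.64, and with plain total scaling no gene of the list, Rfwd2 included, was called higher. In RA 1 rose and 1 fell (2 rose without the trend), and the interaction was called higher for Det1 (0.87) and for no other. No gene of that list was called between the lines in normal medium by limma, and under starvation 2 were higher in RA (1 with median-ratio scaling, DESeq2 or no filter).

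**Figure D5:**
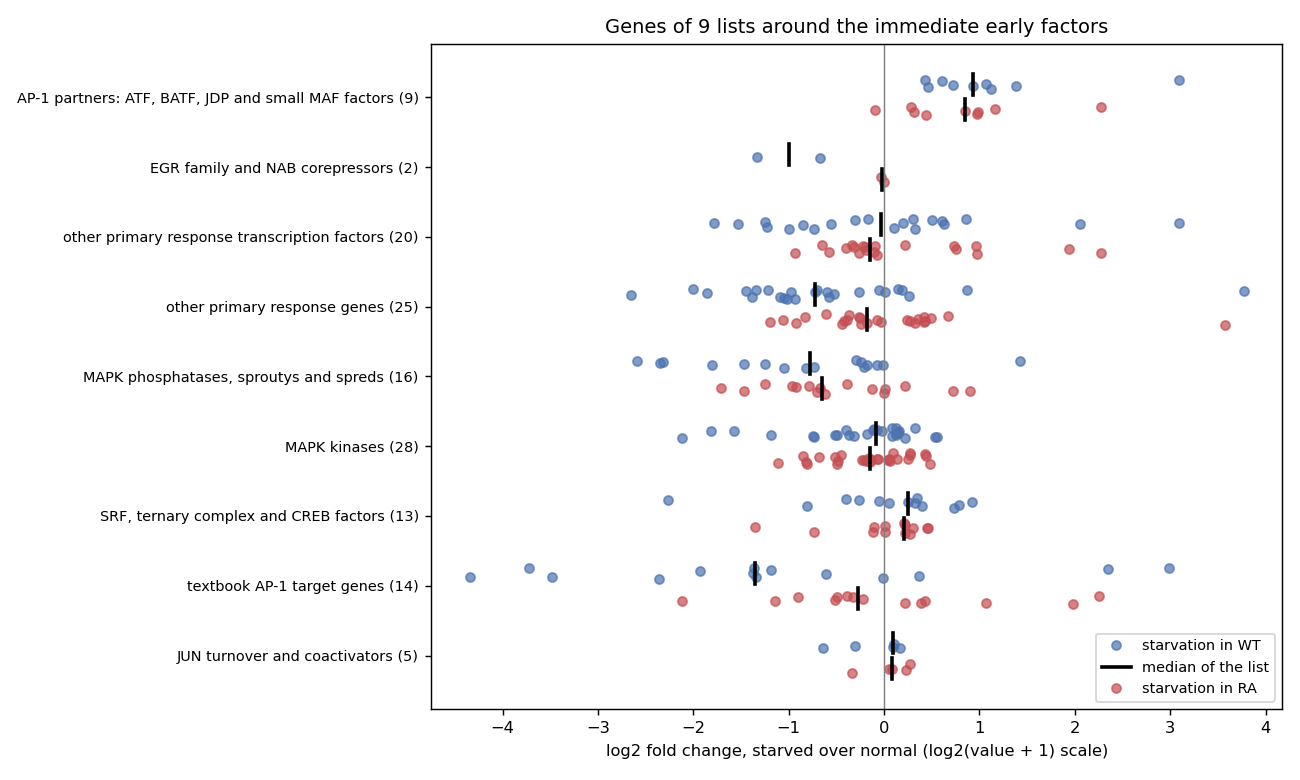
Log2 fold change of starved over normal medium, on the log2(value + 1) scale, of each tested gene (points) of the 9 lists in WT (blue) and RA (red), with the list's median (black bar) and the number of tested genes in brackets. The partner list lies above 0 in WT with a median of 0.94, and the AP-1 target list has medians of -1.35 in WT and -0.28 in RA.

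The genes whose pattern over the 8 libraries was most like that of a member were found by Pearson's r on log2(value + 1) among 10497 or 10498 other genes with a mean value of at least 10, as a description. For Fosl2 these were Ctnnd1 (r = 0.999), G3bp2 (0.999) and Actr2 (0.998). For Egr1 they were Ugdh, Tm9sf3 and Trib1, each at 0.999, and Trib1 is itself on the list of primary response genes. B4galt5 (0.998), Hat1 (0.997) and Sfr1 (0.996) were most like Jun. Aspscr1 (0.988), Gm11175 (0.948) and Mri1 (0.833) were most like Jund, and Gm11175 is the gene that overlaps Jund. Fosl1 was most like Pycrl, Cct7 and Sumf2, at 0.945, 0.944 and 0.933, and Junb most like Psmb6, at 0.979. For Ier2 the nearest was Itfg2 (0.978), with means of 20.1 and 14.6 in normal and starved WT and 22.9 and 27.8 in normal and starved RA. Fos was nearest to Alg13 (0.974), Fosb to Cab39l (0.984) and Egr2 to Prr5l (0.979). With so many candidates and 4 conditions behind 8 libraries, high values of r are to be found for any gene that moves with starvation.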

How the data were processed

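Libraries of polyA RNA were prepared by the authors with the TruSeq RNA v2 kit, sequenced as paired ends on an Illumina HiSeq and mapped with TopHat2 (version 2.0.9, per the submitters' processing notes) to mm9. Bedtools and edgeR are also named there. The read counter, its annotation and its handling of strand are not given in the sources used here. The authors deposited 1 table of signal values, namely the reads of a gene over a scaled size of its library, in the CPM unit. Column names minus and plus were read as normal and starved, as the study marks its conditions. All values (100%) were whole multiples of what 1 read is worth, within 0.1 read, so reads were recovered. Column sums ran from 965845 to 1029723. Of counts from 1 to 9, 78.2% to 80.5% were even, as arises when both mates are counted, so edgeR was also run on halved reads. Plain CPM had been planned for, and since the library sizes turned out to be scaled, the planned test was applied to these values unaltered. Of the rows, 26 had names turned into dates and 18085 were at 0 throughout.

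Genes at a value of 1 or more in 2 or more libraries were fitted by limma (version 3.58.1, R version 4.3.3) on log2(value + 1), with a mean per group over all 8 libraries, eBayes with a trend, 2-sided p-values and BH adjustment over 16232 genes in each of 5 contrasts. Calls were made below an adjusted p of 0.05. This scale understates changes of low genes. Differences between lines are RA minus WT, and the interaction is the response in RA minus that in WT. Alternatives changed 1 choice at a time, except that DESeq2 (version 1.42.0) on whole reads and edgeR (version 4.0.16) on whole or halved reads brought their own scaling (median ratio and TMM) with their tests. Scripts were tested on simulated data. The members and the 9 gene lists were chosen with earlier results of these data known, and no set test was run. From each list were named up to 3 called genes with the highest and 3 with the lowest log2 change in WT, and 2 of each for the interaction, at a mean value of at least 5. Levels per kilobase and overlaps came from GENCODE M21 on GRCm38, promoters from RefSeq.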

Additional observations from a re-analysis of the deposited data

Results flagged for a closer look

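The response to starvation differed between the WT and RA lines for 3 of the 10 members, by the test of the difference itself (the interaction term of limma, BH-adjusted p under 0.05). The interaction was -0.35 for Fosl1, with log2 changes of 0.12 for WT and -0.23 for RA. It was 0.56 for Fosl2, with changes of -1.26 for WT and -0.70 for RA. It was 0.67 for Egr1, with changes of -1.18 for WT and -0.51 for RA. The rise of Fosl1 in WT was lost with plain total scaling and with quantile normalization. Over all tested genes 24.5% had a higher and 26.1% a lower interaction. The 2 higher and 1 lower of 10 members are no more than that background in number, and the cause of the differences was not tested.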

How the results depend on the processing

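Of 725 member values under alternatives, 665 kept their direction and side of the threshold, and 576 list counts, of calls in either direction together, were within 1.5 times of the main count in 556 cases. Of the 7 members called under starvation in WT, 4 were left at a filter of 5, 3 at an adjusted p under 1e-05 and 2 with at least a 2-fold change, and leaving out 1 library gave 5 to 8. In RA, 6 became 3 at 1e-05, 1 with 2-fold and, leaving out 1 library, 6 to 8. Between the lines in normal medium, 1 became 2 with quantile normalization, plain totals, the replicate block and DESeq2, 0 without the trend, at 1e-05 and with 2-fold, and 0 (without WT normal 1) to 2 (without RA normal 2) leaving out 1 library. Under starvation, 5 became 2 at 1e-05, 0 with 2-fold, and 3 (without RA starved 1) to 5. For the interaction, 3 became 1 at 1e-05, 0 with 2-fold, and 3 to 4 leaving out 1 library.

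The values that changed sign were not called as reported. Jund in WT was -0.067 with plain totals, -0.0026 with DESeq2 and -0.063 to 0.074 leaving out 1 library. Egr2 in normal medium was -0.0089 with a pseudocount of 0.1, -0.019 with plain totals, -0.018 on halved reads and -0.21 to 0.22 leaving out 1 library. Fos under starvation was -0.0016 with that pseudocount, -0.012 with median-ratio scaling, -0.11 with quantile normalization, -0.0022 with edgeR, -0.015 with DESeq2, -0.0052 on halved reads and -0.11 to 0.11 leaving out 1 library. Junb there was 0.0088 with quantile normalization, 0.020 with plain totals and -0.026 to 0.020 leaving out 1 library, and Fosb spanned -0.28 to 0.039 and Jun -0.10 to 0.15 that way. For the interaction, Fos was -0.020 with quantile normalization and -0.0016 to 0.22 leaving out 1 library, and Jun spanned -0.21 to 0.040 that way. The cause was not tested.

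Same-numbered replicates deviated together with correlations of -0.0076 to 0.16 across genes. Whether they share more than a number was not tested. With the replicate block 7, 7, 2, 5 and 3 members were called in the 5 contrasts, in the order starvation in WT, in RA, between lines in normal medium, under starvation and interaction. Depth limits Egr2, Fosb and Fos, with 4, 32 and 72 reads in their lowest libraries, and each group has 2 libraries.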
